A study of Mus musculus with 3 samples.

Results

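The peaks described here mark where Atoh7, a transcription factor of the basic helix-loop-helix (bHLH) family, was found in sequence between genes, at middle distance from them. They are the listed Atoh7 peaks on chromosomes 1 to 19 and X whose midpoint lay outside every protein-coding gene, 5 to 100 kb from the nearest one, and more than 5 kb from either end of any long noncoding RNA (lncRNA) gene. In all, 535 of 3668 listed peaks met this rule. They made up 14.6% of the 3662 peaks on those chromosomes (95% Wilson interval 13.5 to 15.8%). The study applied CUT&RUN, a method that frees the DNA around a bound protein with a nuclease tethered to an antibody, to retina of C57Bl6/J mice at embryonic day 14. It made 2 libraries with an Atoh7 antibody and 1 with control IgG, and no genetic change or treatment is named for either group. The deposited values were 1 list of peaks on the mm10 build with position and width, and no height, p-value or value per library. Every peak name carries the tag Atoh7_R1, and 51.1% of the numbers up to the highest, 7185, are present. What removed the others, and whether the second replicate or the IgG library entered the list, was not given in the sources used here. The spread between libraries could therefore not be measured, library depth is unknown, the IgG background was not analysed here, and the tissue label could not be set against marker genes. The values below describe this list, no test was run on them, and intervals cover the counting of peaks or genes only.

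Atoh7 is made by retinal progenitors as they leave the cell cycle, and mice that lack the gene form few retinal ganglion cells, which send the output of the eye to the brain. bHLH proteins bind DNA as dimers at the E-box, a hexamer written CANNTG in which N is any base. Much of the DNA that controls developmental genes lies outside the genes, as enhancers that can act over long distances and need not act on the nearest gene, so the nearest gene named below is a position and not a target.

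The sequence under most of these peaks was not used here, because no genome was read. A mouse RefSeq table (GRCm38.p6, a release of the assembly that mm10 names) held the bases of stretches inside 3 of the 535 peaks, shown 5′ to 3′ on the strand of the noncoding gene they belong to, with each E-box in capitals. The first is the predicted hairpin of the miRNA gene Gm51288 (chr11:86852604-86852658, minus strand), which lies inside the widest of the intergenic peaks. The second is the part of a start region of the lncRNA gene Gm33448 (chr6:100163275-100163551, minus strand) under a peak 65.3 kb from Rybp. The third is the part of a start region of the lncRNA gene LOC105244755 (chr5:64714603-64714717, minus strand) under a peak 87.8 kb from Gm38457.
Gm51288 hairpin: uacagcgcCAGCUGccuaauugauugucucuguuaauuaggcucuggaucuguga
Gm33448: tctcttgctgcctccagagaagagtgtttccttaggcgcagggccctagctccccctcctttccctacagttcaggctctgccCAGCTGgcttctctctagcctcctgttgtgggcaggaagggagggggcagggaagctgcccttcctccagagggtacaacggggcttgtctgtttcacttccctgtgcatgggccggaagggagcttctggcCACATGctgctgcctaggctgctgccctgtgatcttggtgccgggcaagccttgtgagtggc
LOC105244755: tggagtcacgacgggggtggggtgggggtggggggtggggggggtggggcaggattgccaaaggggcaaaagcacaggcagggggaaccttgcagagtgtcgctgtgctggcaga
The hairpin held 1 E-box, of the RNA form CAGCUG, which 4.37% of 985 mouse hairpins held in their first 55 bases. The Gm33448 stretch held 2 E-boxes, 1 of them CAGCTG, and 15.5% of 32619 RefSeq start regions of coding and lncRNA genes held CAGCTG in the same 277 bases. The LOC105244755 stretch held no E-box, and 38.2% of start regions held one in the same 115 bases. CAGCTG and CANNTG read the same on both strands, and CAGCTG is one form of CANNTG.

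The mature products of the Gm51288 hairpin are shown next because this was the only miRNA gene that any of the 535 peaks overlapped, with the seed, bases 2 to 8, in capitals.
mmu-miR-12182-5p: aCAGCGCCagcugccuaauuga
mmu-miR-12182-3p: uAAUUAGGcucuggaucuguga
The E-box of the hairpin lies in the 5p product and begins at the last base of its seed. The peak over it, chr11:86851476-86853087, was 1612 bp wide and centred 323 bp from the hairpin, inside the lncRNA gene Gm33742 and 44.4 kb upstream of Dhx40, which encodes a helicase.

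The intergenic peaks were sparser than the list as a whole. Sequence that met the same rule made up 605 Mb, or 23.3%, of the 2600 Mb between the first and the last protein-coding gene of each chromosome, against 14.6% of peaks. This gave 0.884 intergenic peaks per Mb of such sequence, against 1.41 listed peaks per Mb of chromosome. The rule itself is set on position, so these densities describe the members and were not tested. A further 185 peaks lay 5 to 100 kb from the nearest coding gene but within 5 kb of an lncRNA gene end, and the lncRNA condition left them out of the 720 that met the distance alone.

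The nearest genes numbered 444, or 2.05% of the 21631 protein-coding genes on these chromosomes. With the flanking gene on either side counted within 100 kb, 653 genes (3.02%) had one. Of the 444, 377 had 1 intergenic peak, and 67 had more. Cwc22 had the most, with 6, and Gadd45a, Gadd45g and Ttc29 were among the genes with 4. Some of these genes also held other listed peaks. Cwc22 held 11 of them inside the gene or within 1 kb. Of the peak numbers within 10 on either side of its 6 intergenic peaks, 15 to 30% were present, against a median of 50% for the 535. Of the 444, 111 (25%, 95% Wilson interval 21.2 to 29.2%) also had a listed peak inside the gene or within 1 kb of it, against 9.38% of all coding genes. Among the 67 genes with 2 or more intergenic peaks the share was 22 of 67 (32.8%, interval 22.8 to 44.7%). These genes were also longer, with a median of 37.1 kb against 17.3 kb for all coding genes, and the part of gene length in this share was not tested.

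Among 15 gene lists, those of neurogenic progenitors, the Notch pathway and corepressors or chromatin proteins took the most intergenic peaks for the sequence around them. Of 30 neurogenic progenitor genes, 7 had an intergenic peak (23.3%, 95% Wilson interval 11.8 to 40.9%), where 2.05% of all coding genes did. Those 7 genes had 14 peaks, 2.62% of the 535, while 0.215% of the rule's bases are nearest to the 30 genes of the list. Gadd45a and Gadd45g had 8 of the 14, and without them the other 28 genes had 6 peaks (1.12% of the 535, in 0.185% of bases). The Notch list had 4 of 30 genes and 7 peaks (1.31% of peaks, 0.173% of bases), and the corepressor and chromatin list 5 of 30 genes and 10 peaks (1.87% of peaks, 0.240% of bases). Of the genes with an intergenic peak, 5 of 7 in the neurogenic list, 4 of 4 in the Notch list and 4 of 5 in the corepressor list also held another listed peak inside or within 1 kb, against 111 of all 444. The lists share genes and their peaks, Dll1 being in the neurogenic and the Notch lists. The lists were drawn up with earlier results of these data known, so these counts describe them and are not independent evidence. Bases that meet the rule are also more plentiful around neurogenic genes, with a median of 20.7 kb per gene against 8.51 kb for all coding genes.

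**Figure D1:**
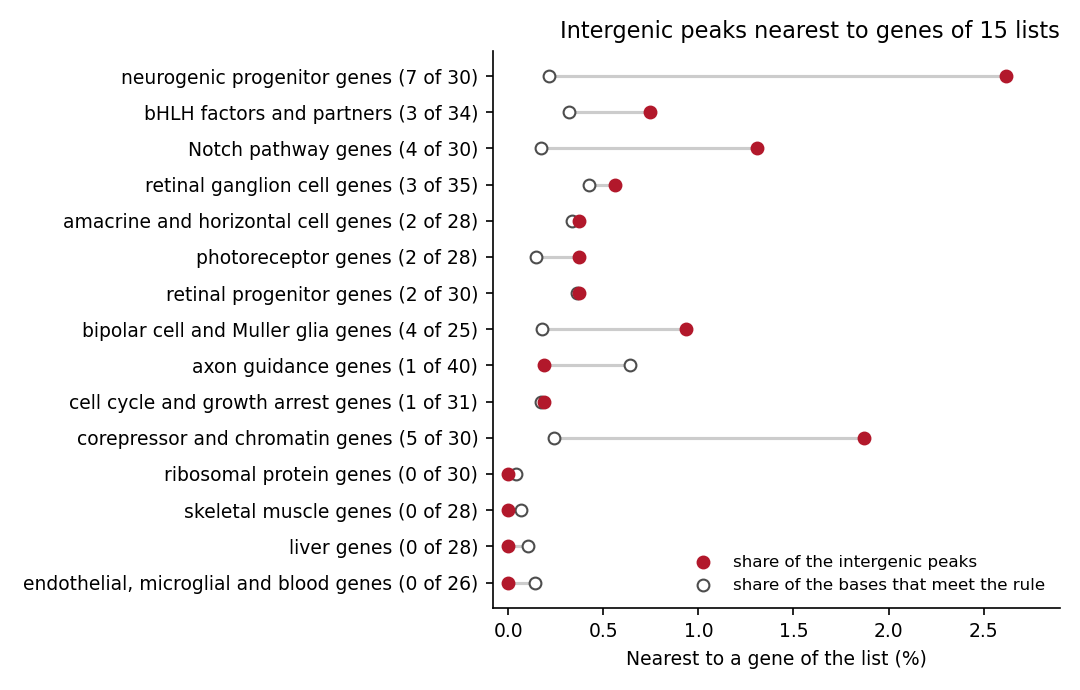
Share of the 535 intergenic peaks (red) and share of the bases that meet the rule (open) nearest to the genes of 15 lists, in percent; numbers in brackets give the genes with an intergenic peak of those in the list. The neurogenic list stands farthest to the right (2.62% of peaks, 0.215% of bases). Axon guidance genes have 1 peak, a smaller share of peaks (0.187%) than of bases (0.643%), a gap that was not tested.

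Among the neurogenic genes, Atoh7 itself (chr10:63099785-63101280, plus strand) had a pair of intergenic peaks upstream. They lay at chr10:63089274-63089649 and chr10:63090148-63090681, centred 10.3 and 9.37 kb from the gene, and were 376 and 534 bp wide. The span between Atoh7 and its neighbour Pbld1 is 21.8 kb long, so both genes are near. Closer to Atoh7, 2 more listed peaks, centred 1.37 kb and 79 bp upstream, fell short of the 5 kb bound. Neurod4, a bHLH gene of differentiating neurons, showed the opposite arrangement, with an intergenic peak 23.7 kb downstream (chr10:130244281-130244627) and 2 others 1.99 and 3.43 kb upstream.

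The growth arrest genes Gadd45a and Gadd45g had 4 intergenic peaks each. Gadd45a (chr6:67035096-67037407, minus strand) had all 4 upstream, as a pair 10.9 and 12.2 kb away inside the lncRNA gene E230016M11Rik and a pair 88.6 and 93.5 kb away. The peak at 12.2 kb, chr6:67049121-67050020, was 900 bp wide. Gadd45g (chr13:51846675-51848475, plus strand) had 1 peak 13.0 kb upstream and 3 downstream, at 55.2, 69.5 and 72.3 kb, the last being 731 bp wide (chr13:51920448-51921178). Each gene also had a listed peak over its start, centred 144 bp upstream of Gadd45a and 130 bp upstream of Gadd45g, and both had a peak 10.9 to 13.0 kb upstream. Other neurogenic genes had 1 peak each, Dll1 at 24.0 kb downstream, Mybl1, a Myb family factor gene, at 18.3 kb, and Cbfa2t3, a corepressor gene, at 10.3 kb upstream.

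Start regions of 3 of these genes are shown because a listed peak covered them while intergenic peaks lay farther out. Each is the 250 bases before the RefSeq start (GRCm38.p6), 5′ to 3′ on the strand of the gene, with each E-box (CANNTG) in capitals. They are chr10:63099535-63099784 for Atoh7 (plus strand), chr6:67037408-67037657 for Gadd45a (minus strand) and chr13:51846425-51846674 for Gadd45g (plus strand).
Atoh7: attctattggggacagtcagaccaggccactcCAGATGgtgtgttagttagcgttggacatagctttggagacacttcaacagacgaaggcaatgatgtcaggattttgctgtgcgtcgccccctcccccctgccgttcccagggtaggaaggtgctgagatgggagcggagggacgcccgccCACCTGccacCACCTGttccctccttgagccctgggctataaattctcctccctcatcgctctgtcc
Gadd45a: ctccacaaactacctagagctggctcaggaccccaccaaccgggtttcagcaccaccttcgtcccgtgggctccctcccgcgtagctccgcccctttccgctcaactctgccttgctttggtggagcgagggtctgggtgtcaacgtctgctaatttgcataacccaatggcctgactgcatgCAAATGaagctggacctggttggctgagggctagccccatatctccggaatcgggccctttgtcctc
Gadd45g: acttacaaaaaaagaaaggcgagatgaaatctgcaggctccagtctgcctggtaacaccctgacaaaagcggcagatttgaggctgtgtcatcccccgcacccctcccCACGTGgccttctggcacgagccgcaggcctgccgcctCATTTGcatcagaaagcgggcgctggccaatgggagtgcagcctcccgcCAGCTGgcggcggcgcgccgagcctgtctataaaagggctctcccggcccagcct
Atoh7 held 3 E-boxes in this stretch, 1 of them CAGATG and the others CACCTG, Gadd45g held 3, 1 of them CAGCTG, and Gadd45a held 1. In the same 250 bases, 66.2% of 32619 start regions held CANNTG, 13.1% held CAGCTG, and 14.4% held CAGATG or its other strand, CATCTG. Among the 444 nearest genes, 356 have a start region of 300 bases in the table, and 20 of them (5.62%) had one that a listed peak overlapped, against 3.98% of all coding genes with a start region. CAGCTG stood in a start region that a peak overlapped in 8 of these 20 genes (40.0%). The share was 27.8% of the 687 coding genes with a start region that a listed peak overlapped. It was 20.8% of all 356 nearest genes with a start region, and 17.6% of all 17274. A peak can overlap part of a start region only, so the CAGCTG need not lie under it. The 40.0% rests on 20 genes, and these differences were not tested.

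**Figure D2:**
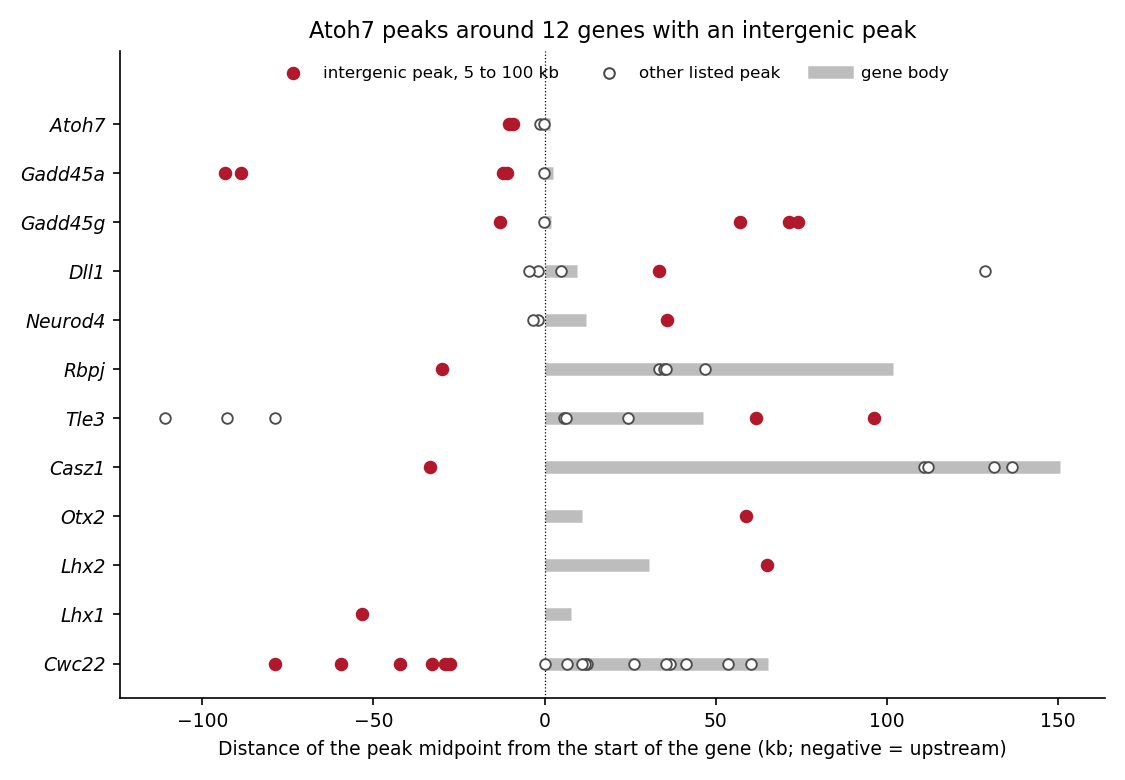
Listed Atoh7 peaks around 12 genes with an intergenic peak, as distance in kb of the peak midpoint from the start of the gene (0, dotted; negative values are upstream); red points are intergenic peaks, open points other listed peaks assigned to the gene, grey bars the gene bodies. Atoh7, Gadd45a and Gadd45g have open points at the start and red points 9.37 to 13.0 kb upstream, while Otx2, Lhx1 and Lhx2 have 1 red point each and no other peak.

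Several well-known neurogenic and retinal genes had listed peaks but none that met the rule. Peaks of Neurog2, Neurod1, Dll4, Hes5, Onecut2 and Six3 lay within 5 kb of the gene, and the Pou4f1 peaks at 122 bp and 104.8 kb. Others were left out for an lncRNA end close by. They were the Btg2 peak of 1147 bp at 11.5 kb (2396 bp from an lncRNA end), the Hes1 peak at 45.0 kb, the Pax6 peaks at 8.37 and 56.6 kb and the Slc32a1 peaks at 12.04 and 15.9 kb. An Onecut1 peak at 14.97 kb and those of Ccne1 at 36.8 kb and Rplp1 at 51.0 kb were left out in the same way. With the lncRNA condition dropped, 11 of 30 neurogenic genes had a peak 5 to 100 kb out, against 583 of all coding genes (2.7%). Pou4f2 and Isl1, ganglion cell factors that act after Atoh7, differed from these genes and were nearest to no listed peak, intergenic or other.

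In the Notch pathway, by which cells that start to differentiate hold back those beside them, the ligand genes Dll1 and Jag1 had 1 intergenic peak each, Jag1 at 40.3 kb upstream (chr2:137156672-137157000). Rbpj, the factor that takes Notch signals to DNA, had 1 peak 30.1 kb upstream (chr5:53525487-53525963) and 4 others inside the gene.

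Corepressor and chromatin genes included Tle3, a Groucho family gene, with peaks 15.7 and 50.1 kb downstream. Another 3 Tle3 peaks, upstream of the gene and inside the lncRNA gene B930092H01Rik, did not meet the rule. Chd7, a chromatin remodeller gene, had peaks 52.0 and 89.5 kb away. Cbx8, a Polycomb gene, had a peak of 598 bp 12.47 kb upstream, and the deacetylase gene Hdac4 one of 177 bp 28.8 kb upstream.

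In lists of genes of differentiated retinal cells, 2 to 4 genes per list had an intergenic peak, or 7.14 to 16% of the list against 2.05% of all coding genes. Bases that meet the rule are also more plentiful around these genes. Their medians were 10.3 to 86.2 kb per gene by list, against 8.51 kb for all coding genes. Of 35 ganglion cell genes, 3 had 1 peak each, with 0.561% of peaks in 0.426% of bases. They were Eya2, a transcriptional co-activator gene, at 31.3 kb (603 bp wide), Elavl4, a neuronal RNA-binding protein gene, at 74.0 kb downstream and Dlx2, a homeobox gene, at 82.9 kb upstream. Among 28 amacrine and horizontal cell genes these were Lhx1, of horizontal cells, 53.4 kb upstream (chr11:84578608-84579248, 641 bp wide) and Barhl2, of amacrine cells, 66.6 kb downstream (178 bp). Their share of peaks was 0.374%, in 0.336% of bases. With no lncRNA condition, 6 of the 28 had a peak, against the same 2.7%. This list has the median of 86.2 kb per gene, and its share of bases was not counted without the lncRNA condition.

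Among 28 photoreceptor genes, Otx2, which starts photoreceptor fate, had a peak of 738 bp 48.0 kb downstream (chr14:48608449-48609186), and Casz1, a zinc finger gene, one 33.5 kb upstream, together 0.374% of peaks in 0.147% of bases. Of 30 progenitor genes, Lhx2 had a peak 34.5 kb downstream (chr2:38403994-38404504) and Dkk3 one at 21.0 kb, which gave 0.374% of peaks in 0.363% of bases. Of 25 bipolar cell and Muller glia genes, 4 had intergenic peaks, 5 in all (0.935% of peaks in 0.176% of bases). Irx5 had a pair 21.7 and 22.3 kb away inside the lncRNA gene Crnde, and Irx6, Aqp4, a water channel gene of glia, and Dkk3 had 1 each. Their widths were 229 to 357 bp, below the median of the 535, and none of these 4 genes held another listed peak inside or within 1 kb.

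The bHLH list had 3 of 34 genes (8.82%), with 0.748% of peaks in 0.319% of bases. They were Atoh7, Neurod4 and Olig3, the last with a peak 46.2 kb upstream. Axon guidance genes lie in long intergenic spans, with 0.643% of the rule's bases nearest to them. They had 1 peak of 535 (0.187%), at 5.16 kb from the plexin gene Plxna1. At the mean density their sequence would hold 3.44 peaks, and with the gene on either side counted 4 of the 40 genes had one. The gap rests on few peaks and was not tested. The growth arrest genes Gadd45a and Gadd45g were counted in the neurogenic list and not in the list of 31 cell cycle and growth arrest genes. Of those 31, 1 had a peak, Btg1, an antiproliferative gene, 23.8 kb downstream. None of 30 ribosomal protein genes, 28 skeletal muscle genes, 28 liver genes or 26 endothelial, microglial and blood genes had one, and a count of 0, taken as up to 3 genes, allows shares of up to 10 to 11.5%. The lists are samples of their kind, and among genes in none of the lists the ribosomal protein genes Rps10 (7.48 and 8.01 kb upstream) and Rps24 (54.3 and 81.7 kb downstream) had 2 peaks each, the liver receptor gene Asgr1 had 1 at 10.5 kb and the muscle gene Myl3 had 1 at 11.6 kb. The flanking sequence of these 4 lists would hold 0.234 to 0.753 peaks per list at the mean density, so a shortage was not detectable at these counts.

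Distances from the nearest protein-coding gene were spread over the whole range, with a median of 28.3 kb and quartiles of 13.8 and 49.7 kb. Between 5 and 10 kb lay 84 peaks (15.7%), where 14.9% of the rule's bases lie. Between 10 and 25 kb lay 156 (29.2%, against 28.4% of bases), and between 25 and 50 kb 162 (30.3%, against 26.6%). From 50 to 100 kb there were 133 peaks (24.9%, 95% Wilson interval 21.4 to 28.7%), below the 30.2% of bases found there. The gene on the other side was much farther, at a median of 103 kb.

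At the edges of the rule, the nearest peaks inside were 5083, 5104 and 5123 bp from Anxa6, 2310022B05Rik and Chn2, and the nearest outside 4921, 4931 and 4942 bp from Gm52512, Ckb and Zfp60. At the far bound the last peaks inside were 98.4, 98.8 and 98.9 kb from Ly86, Slc25a26 and Opa1, and the first outside 100.8, 101.0 and 101.8 kb from Tpra1, Sesn3 and Id4. At the lncRNA bound, peaks near E2f8, Ly86 and Sdc3 were kept at 5008, 5011 and 5076 bp from an lncRNA end. Peaks near Vps37b, Neurod6 and Utp11 were left out at 4932, 4951 and 4981 bp.

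The side of the gene could be told for 424 of the 535 peaks, those whose nearest gene has a start region in the RefSeq table. All 20 peaks on chromosome 18 are among those with no side. Of the 424 with a side, 232 lay upstream and 192 downstream (54.7% upstream, 95% Wilson interval 49.96 to 59.4%). This was close to the 53.8% of the rule's bases that are upstream. The balance differed along the distance. Between 25 and 50 kb, 81 peaks were upstream and 47 downstream (63.3%, interval 54.7 to 71.1%, where 54.5% of bases are upstream). Between 50 and 100 kb the counts were 45 upstream and 59 downstream (43.3%, interval 34.2 to 52.9%, where 52.9% of bases are upstream). At 5 to 10 kb the sides were close to even, with 32 and 31 peaks.

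**Figure D3:**
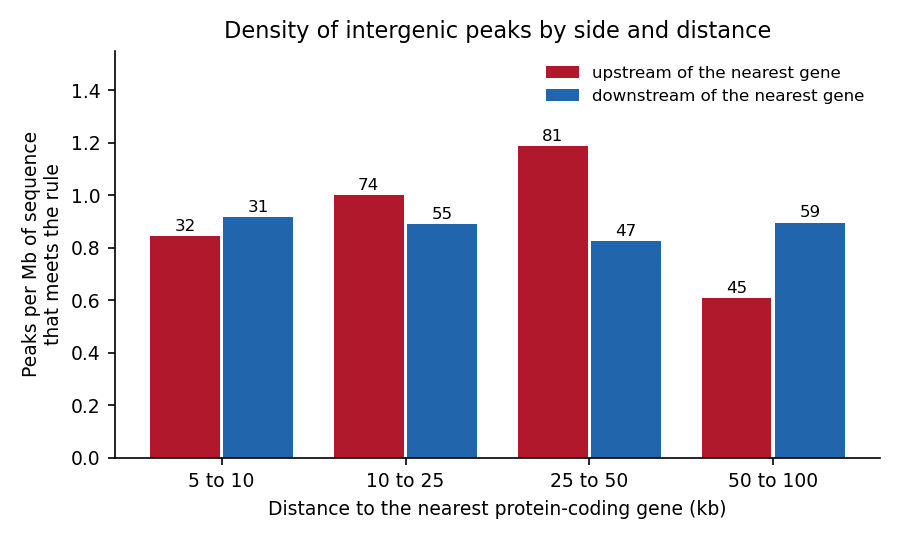
Intergenic Atoh7 peaks per Mb of sequence that meets the rule, upstream (red) and downstream (blue) of the nearest protein-coding gene, in 4 ranges of distance; numbers over the bars are peaks. Upstream density was highest at 25 to 50 kb (1.19 per Mb) and lowest at 50 to 100 kb (0.609 per Mb), while downstream density stayed between 0.825 and 0.916 per Mb.

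Peaks inside lncRNA genes leaned to the upstream side. The rule keeps a peak inside an lncRNA gene if both ends are more than 5 kb away, and 55 of the 535 peaks (10.3%) were of this kind, where 8.41% of the rule's bases are. Of the 43 with a known side, 35 were upstream of the nearest coding gene (81.4%, 95% Wilson interval 67.4 to 90.3%). Some of these peaks share an lncRNA gene, as the 3 in Gm46288 upstream of Abr do. The interval counts each peak on its own, so the lean over separate lncRNA genes was not measured. The bases of lncRNA genes that meet the rule are themselves 60.7% upstream. Outside lncRNA genes, 197 of 381 peaks were upstream (51.7%, interval 46.7 to 56.7%, against 53.1% of bases). Without the 85 peaks that lay inside or within 5 kb of a noncoding gene or pseudogene, 450 peaks remained. Of those with a known side, 49.9% were upstream. Other noncoding genes were rarely touched, with 1 snoRNA gene, 1 snRNA gene (Rnu2-10, 6.89 kb from Arl4d), 1 miscellaneous RNA gene and 4 pseudogenes overlapped.

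Peak width was not used by the rule. The 535 intergenic peaks had a median width of 383 bp (quartiles 262 and 499 bp), against 380 bp (269 and 484 bp) in the other 3127 peaks, a difference of 3 bp. Peaks more than 100 kb from any coding gene had a median of 399.5 bp, those inside coding genes 383 bp and those within 1 kb of a coding gene end 357 bp. Wide peaks, of 800 bp or more, made up 3.36% of the intergenic peaks (18 of 535), against 2.65% of the other 3127, 4.91% of those more than 100 kb out, 2.66% of those inside coding genes and 0.881% of those at coding gene ends. The narrowest width in the list, 177 bp, was shared by 15 of the intergenic peaks (2.80%), against 56 of the others (1.79%).

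**Figure D4:**
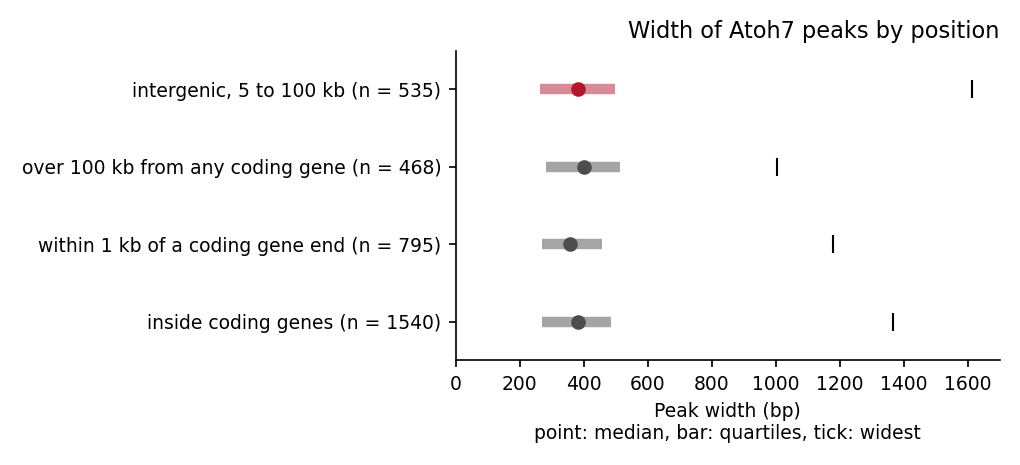
Width in bp of the 535 intergenic peaks (red) and of 3 other classes of Atoh7 peak (grey), as median (point), quartiles (bar) and widest peak (tick). The medians lie between 357 and 399.5 bp, and the widest peak of these classes, at 1612 bp, is intergenic.

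The widest intergenic peaks lay near genes of varied function. After the Dhx40 peak came one of 1191 bp 59.5 kb upstream of the splicing factor gene Cwc22 and one of 1073 bp 67.9 kb downstream of Psat1, an enzyme of serine synthesis. Peaks of 983, 968 and 937 bp followed, 78.1 kb from Fam53a, 13.0 kb from the actin regulator gene Coro1c and 64.1 kb from Lnpk, which encodes an endoplasmic reticulum protein and flanks the Hoxd cluster. A peak of 931 bp was centred 52.3 kb upstream of Zeb2, a zinc finger homeobox gene of neural development, at chr2:45169265-45170195. Gadd45a came next with 900 bp, then Sik1, a kinase gene (882 bp), Sh3bgrl2 (880 bp), Ube2d2a, a ubiquitin-conjugating enzyme gene (877 bp), and Fam174b (870 bp).

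Some intergenic peaks came in small groups. Of the 535, 92 (17.2%, 95% Wilson interval 14.2 to 20.6%) had another close by, forming 32 pairs, 8 groups of 3 and 1 group of 4. Midpoints 12.28 kb apart counted as close and those 12.59 kb apart did not. Another listed peak of any kind lay within the same distance of 114 (21.3%, interval 18.05 to 24.98%). The same held for 16.8% of the other 3127 peaks, 19.4% of those inside coding genes (interval 17.5 to 21.4%), 11.8% of those more than 100 kb from any coding gene and 10.9% of those at coding gene ends. The group of 4 lay 27.8 to 42.1 kb upstream of Cwc22. Groups of 3 lay beside Abr, inside the lncRNA gene Gm46288, and beside Ptma, Cmpk2, Tbc1d22a, Wdr7 and Ttc29. A further group of 3 lay between the homeobox gene Hmx1 and Cpz. Several groups were very tight, such as the Cmpk2 peaks, which spanned 1.52 kb, and the Wdr7 peaks, which spanned 1.41 kb. Whether calls this close form 1 broader region was not tested.

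The Ttc29 and Chrnb4 peaks were less tight. Ttc29 had 4 peaks upstream, at 65.7, 82.1, 84.0 and 96.0 kb, in a span of 489 kb up to Ednra. Chrnb4, a nicotinic receptor subunit gene, had 3 upstream, at 18.7, 34.5 and 41.4 kb, the nearest being 686 bp wide. In total, 436 spans held an intergenic peak, and 71 held 2 or more, set against 12000 spans of over 10 kb between coding genes. The 436 include a stretch beyond the outermost coding gene of a chromosome, which the 12000 leave out. Of the 535 peaks, 534 lie between coding genes. Spans with a peak had a median length of 140 kb, against 38.2 kb for all spans of over 10 kb between coding genes. A longer span can hold more bases that meet the rule, and the part of this in the difference was not tested.

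**Figure D5:**
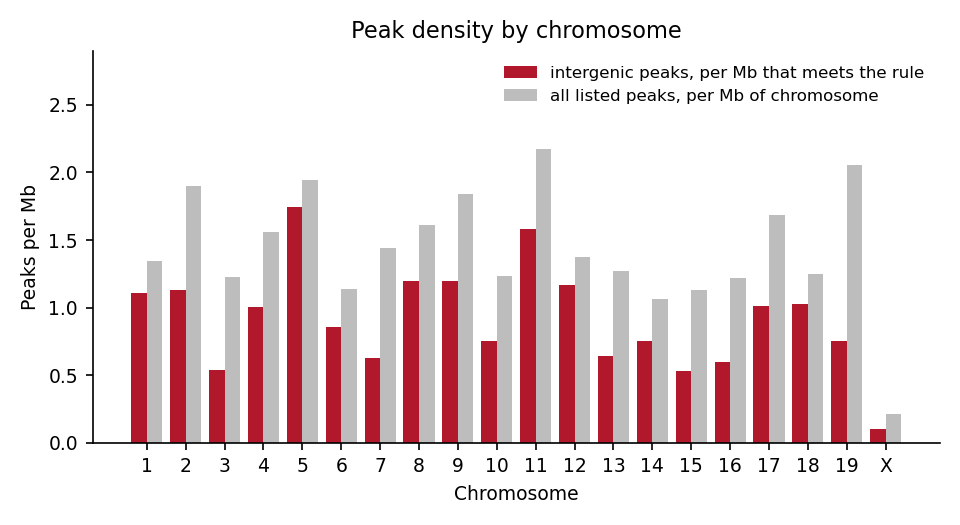
Peaks per Mb by chromosome, for intergenic peaks per Mb that meets the rule (red) and for all listed peaks per Mb between the first and the last coding gene (grey). Chromosome 5 has the highest red bar (1.74 per Mb) and X the lowest (0.106 per Mb).

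Density varied between chromosomes. Chromosome 5 had 57 intergenic peaks, 10.7% of them, at 1.74 per Mb of sequence that meets the rule, and chromosome 11 had 38, at 1.58 per Mb. Chromosome 15 was the lowest autosome with 11 peaks, at 0.529 per Mb. The X chromosome had 6 peaks at 0.106 per Mb. All listed peaks were sparse there too, at 0.217 per Mb, against 1.06 to 2.17 per Mb on the autosomes. Of those 6 peaks, 3 lay in the span next to Pja1.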

How the data were processed

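The deposited list gives peak start, end and width in bp, per the file headers. The authors used MACS2 2.2.7.1, Picard 2.0.1, Bowtie2 2.3.5, bedtools and SAMtools with mm10, per the submitters' processing notes. Their settings and any filter on the list were not given in the sources used here. Genes, with their ends and kinds, were those of RefSeq on GRCm38.p6, a table with 49554 genes, 21631 of them protein-coding, and strand from a RefSeq table of start regions, which covers 79.9% of the coding genes. All 417 list genes were matched.

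Midpoints were rounded down. A distance ran from the midpoint to the nearer end of the gene. Bases that meet the rule were counted one by one between the first and the last coding gene of each chromosome, and 534 of the 535 peaks lie in that span. A base was given to the nearest coding gene. The counting was tested on simulated positions. A start region runs from 250 bases before to 50 after a start. The members and lists were chosen with earlier results of these data known. The text names the nearest gene of each of the 12 widest peaks, the 8 genes with most peaks, up to 5 per list with the widest peaks, 3 peaks at each bound and a set of 26 retinal and control genes. Cbfa2t3, Rps10, Rps24, Asgr1, Myl3, Hmx1, Cpz, Pja1, Ptma, Wdr7 and Tbc1d22a were named after their values were seen. Results for 1 gene were left out. The E-box shares planned for whole peaks were not computed, since no genome was read. Alternatives are listed with their effects at the end. The work was done in Python 3.11.15 with pandas 2.3.3, numpy 2.4.6, matplotlib 3.10.9 and scipy 1.17.1.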

Additional observations from a re-analysis of the deposited data

How the results depend on the processing

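The deposited list has no depth and no value per library, so precision could not be set by depth. No paired analysis was possible because the list has no value per replicate, and no replicate could be left out for the same reason. Of 104 alternative values, 78 stayed within 1.5 times of a count or inside the interval of a share or median. The number of intergenic peaks ranged from 402 (5 to 50 kb) to 720 (no lncRNA condition), and the median distance from 28.3 to 28.8 kb.

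The share with another intergenic peak nearby was 14.0% with a linking distance of 5 kb, 22.4% with 25 kb and 21.3% with any listed peak as the partner. The upstream share was 49.9% for peaks more than 5 kb from any annotated gene. With the wider 50% of peaks, 245 genes had an intergenic peak, and the counts were 1 for bHLH, amacrine and horizontal cell, photoreceptor and progenitor genes and 0 for bipolar cell and Muller glia genes. With both flanking genes the counts were 5 for bHLH and ganglion cell genes, 4 for axon guidance genes and 1 each for ribosomal protein and skeletal muscle genes. At 5 to 50 kb they were 1 for ganglion cell genes and 0 for amacrine and horizontal cell genes. More than 5 kb from any annotated gene, 2 bipolar cell and Muller glia genes had a peak. With no lncRNA condition, chosen after seeing the data for the lists, the counts were 11 for neurogenic, 5 for bHLH, 6 for amacrine and horizontal cell, 4 for progenitor, 2 for axon guidance, 3 for cell cycle and 1 for ribosomal protein genes. The upstream share and the share of peaks at neurogenic genes were also added after seeing the data. The neurogenic share was between 2.24 and 2.95% under 5 alternatives and 1.12% without Gadd45a and Gadd45g. The alternatives differ in which peaks or genes they admit, or in the linking distance or partner. What moved each value was not tested. The planned E-box alternative was not run.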

Other observations

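Genes outside the lists, named after their values were seen, also had intergenic peaks, given here as values. Among homeobox and other developmental transcription factor genes, Uncx had 3, at 8.19 kb upstream inside the lncRNA gene 4930500L23Rik and at 33.4 and 37.0 kb downstream. Lmo1, a LIM-only cofactor gene, had 3 as well, at 16.7 and 21.5 kb upstream and 23.3 kb downstream. Six2 had 2, and the one at chr17:85645556-85646254, 699 bp wide, lay in the span between it and the eye-field gene Six3, 16.8 kb from Six2 and 19.7 kb from Six3. Prdm13, a factor gene of amacrine cells, had a peak 64.1 kb downstream, the next coding gene on the other side being 831 kb away. Shox2 had one at 36.2 kb downstream and Sp8 one of 177 bp at 5.14 kb upstream.

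Some genes of neuronal signalling had more than 1 peak. Npy, the neuropeptide Y gene, had peaks 44.2 kb upstream and 74.7 kb downstream. Gal, the galanin gene, had a pair 5.21 and 8.17 kb upstream. Rgs8, a regulator of G protein signalling, had peaks 11.2 kb upstream and 6.17 and 7.52 kb downstream, the last 2 in the span up to Rgs16, which is 36.5 and 35.2 kb from them. A listed peak also overlapped 2 start regions of Rgs8, both of which held CAGCTG. Spry1, an inhibitor of growth factor signalling, had a pair 22.3 and 27.9 kb downstream, 637 and 640 bp wide.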
